A study of Macaca mulatta with 6 samples.

Results

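Solute carrier genes, those whose symbol begins with SLC and a family number, were examined in left adrenals from female rhesus macaques without ovaries (ovariectomized). They were taken from probe sets that name 1 gene in the platform annotation. SLC18A1 and SLC18A2 were left out. This gave 236 of the 11963 genes on single-gene probe sets, covered by 363 probe sets, and for each gene its brightest probe set was used, by mean log2(intensity + 1) over 6 arrays. Of the 236, 131 reached the median level of the non-control probe sets (log2 7.30) and were tested, and 105 lay below it. The rule is one of names: 5 of the 236 are not carriers, namely the regulator gene SLC2A4RG, the adaptor gene SLC4A1AP, 2 pseudogenes and 1 antisense RNA gene, and the first 2 of these were among the tested.

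The series asked how adrenal gene expression varies over the day. Adrenal RNA of 1 animal per clock time was hybridised to 1 Affymetrix human array, every 4 h from 3 AM to 11 PM. All animals were ovariectomized, caged singly, kept on a 12 h light and 12 h dark cycle and fasted before necropsy, and no source used here names the clock hour at which lights came on. The 3 AM and 7 AM animals were 12 years old and the 11 AM animal 10 years and 37 days. The younger 3 were collected at 3 PM (8 years, 106 days), 7 PM (7 years, 82 days) and 11 PM (8 years, 70 days), so the animals of 3 AM to 11 AM were all older than those of 3 PM to 11 PM, and clock time cannot be fully told apart from age. The whole gland was used, cortex and medulla together. In such bulk tissue, fewer cells of a type and less RNA per cell cannot be told apart. The probes follow human sequence, so levels of different genes are not ranked here; the choice of the brightest probe set, the level median and the sums over markers carry this limit.

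Solute carriers move small molecules across membranes, some down a gradient, others by coupling the solute to sodium, protons or an exchanged ion. Many families sit in the plasma membrane and take up amino acids, sugars, ions or organic anions. The SLC25 family lies mostly in the inner mitochondrial membrane, and the SLC35 family brings nucleotide sugars into the Golgi and endoplasmic reticulum. In the adrenal, carriers feed steroid synthesis with metabolites in the cortex, and they take up ascorbate and recover noradrenaline in the medulla.

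No carrier passed a test for a 24-h course after adjustment, and the share past a looser rule was no higher than that of all genes. A 24-h cosine was fitted to each gene, and a carrier was counted when the unadjusted p of limma's moderated F test was under 0.05 and the fitted peak was at least 1.5 times the trough. Of the 131 tested carriers 6 met this rule (4.58%), against 5.56% of all 7164 genes tested. After Benjamini-Hochberg adjustment over all genes 0 carriers passed in limma, the lowest adjusted p being 0.836, and the ordinary F test also gave 0. By the looser rule the ordinary test called 6 carriers, of which 3 were among these 6; SLC25A46, SLC39A14 and SLC6A13 did not pass it. The share of all genes passing adjustment was 0%. The median fitted peak was 1.40 times the trough in carriers and 1.35 times over all genes, and the median R2 of the curve was 0.383 and 0.399. Single arrays moved the count: it was 12 without the 3 AM array, where 7.48% of all genes were called, and 3 without the 3 PM array. The share of all genes is not given for the count without 3 PM or for that of the ordinary test.

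The 6 genes had peaks in a pair of windows, 4 between 2.00 h and 5.45 h and 2 in the late afternoon. Peaks of all genes past the rule fell in every 4-h window of the day, with 52 to 84 genes in each. With only 6 carriers, their windows are not shown to be particular to carriers. SLC35A5 belongs to the nucleotide sugar carrier family of the Golgi. Its intensities were 391 at 3 AM, 332 at 7 AM, 259 at 11 AM, 222 at 3 PM, 291 at 7 PM and 382 at 11 PM. They fell step by step from the 3 AM to the 3 PM array and were higher again at 7 PM and 11 PM. The fitted peak was 1.77 times the trough (log2 0.82 ± 0.25, SE of the fit) at 2.00 h, with adjusted p = 0.836 by limma and an R2 of 0.978. Among the 60 circular orders of the 6 arrays no other order gave a higher R2 (exact p = 0.0167, the smallest this design can give). This describes a gene already picked by its cosine fit: 3 of the 131 carriers reached that p (2.29%), SLC35A5, SLC12A5 and SLC25A40, against 1.8% of all genes. It did not pass when any single array was left out, with log2 differences of 0.73 to 0.88.

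SLC25A46, a mitochondrial carrier family member of the outer membrane with a part in mitochondrial shape, had 389 at 3 AM, 370 at 7 AM, 222 at 11 AM, 162 at 3 PM, 303 at 7 PM and 336 at 11 PM. The 11 AM and 3 PM arrays lay below the other 4. Its peak at 2.40 h was 2.22 times the trough (log2 1.15 ± 0.31), the smallest unadjusted p of any carrier, with an adjusted p = 0.836 by limma and an exact order p = 0.0833 (R2 0.829). It did not pass without the 11 AM or the 3 PM array, and with 1 array left out its log2 difference ran from 0.84 to 1.35.

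SLC6A13 encodes GAT2, a sodium-coupled carrier of GABA and taurine. Intensities were 579 at 3 AM, 366 at 7 AM, 415 at 11 AM, 238 at 3 PM, 278 at 7 PM and 457 at 11 PM, so the 3 PM and 7 PM arrays were low and 3 AM was highest. The fitted peak at 3.54 h was 2.06 times the trough (log2 1.04 ± 0.34, adjusted p = 0.836 by limma, exact order p = 0.15). The gene passed without the 7 AM or 11 AM array and not when any other was left out. Adipocyte markers also ran high at 3 AM and low at 3 PM: the 3 tested of 6 listed lay at 0.63 and -0.63 from their own means on the log2 scale. At 7 AM the markers were nearly as low (-0.60), while SLC6A13 (366), SLC25A46 (370) and SLC35A5 (332) each lay above their 3 PM values. The summed intensity of the listed markers ran from 1588 to 2576 on the arrays of 7 AM to 3 PM and from 2490 to 4166 on the other 3. Their part in the values of SLC6A13, SLC25A46 and SLC35A5 was not tested.

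SLC39A14 encodes ZIP14, which takes up zinc, manganese and iron. It had 664 at 3 AM, 599 at 7 AM, 421 at 11 AM, 400 at 3 PM, 316 at 7 PM and 400 at 11 PM. The 2 highest arrays were those of the 2 oldest animals and the lowest that of the youngest. The fitted peak was at 5.45 h, 1.94 times the trough (log2 0.96 ± 0.29, adjusted p = 0.836 by limma, exact order p = 0.0667). A straight line on age gave a slope of 0.19 ± 0.05 (SE) log2 units per year (adjusted p = 0.661 by limma), the smallest p of any carrier in that fit. With age as a covariate of the cosine the log2 difference was 0.55, the fitted peak lay at 19.6 h and the gene did not pass. It also failed to pass without 3 AM, 7 AM or 7 PM. None of the 6 passed with age as a covariate, a fit that called 8 other carriers. The share of all genes called there is not given.

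SLC12A5 and SLC43A3 ran the other way. SLC12A5 encodes KCC2, a potassium-chloride cotransporter known from neurons. Its intensities were 232 at 3 AM, 211 at 7 AM, 261 at 11 AM, 350 at 3 PM, 372 at 7 PM and 265 at 11 PM, with the 3 PM and 7 PM arrays above the rest. The fitted peak at 17.4 h was 1.76 times the trough (log2 0.82 ± 0.25, adjusted p = 0.836 by limma, exact order p = 0.0167, the smallest possible). It did not pass when any 1 of the 6 arrays was left out, nor when arrays were centred on their median, although the log2 difference stayed between 0.75 and 0.91 without single arrays.

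SLC43A3, a carrier of purine bases in a family of amino acid carriers, had 384 at 3 AM, 290 at 7 AM, 336 at 11 AM, 566 at 3 PM, 549 at 7 PM and 436 at 11 PM. Again 3 PM and 7 PM were highest, with a fitted peak at 18.6 h that was 1.91 times the trough (log2 0.93 ± 0.28, adjusted p = 0.836 by limma, exact order p = 0.1). It passed without the 3 AM or 11 PM array and not when any other was left out. Its second probe set above the median level did not follow this course. There the values were 487 at 3 AM, 247 at 7 AM, 258 at 11 AM, 137 at 3 PM, 187 at 7 PM and 319 at 11 PM, lowest on the arrays where the first was highest, with a fitted peak at 3.14 h. The direction of SLC43A3 over the day is therefore not settled by these arrays.

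**Figure D1:**
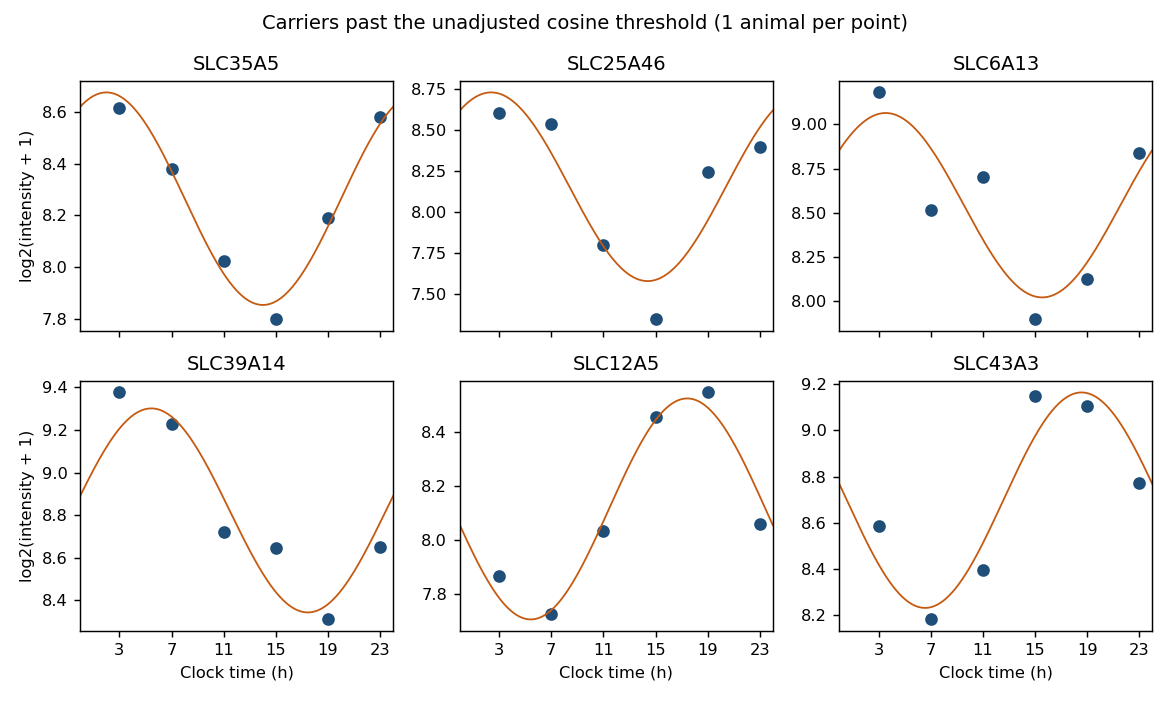
Log2(intensity + 1) against clock time in hours for the 6 carriers past the unadjusted threshold, each point 1 animal and the line the fitted 24-h cosine. SLC35A5, SLC25A46, SLC6A13 and SLC39A14 are highest at 3 AM, and SLC12A5 and SLC43A3 at 7 PM and 3 PM.

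Of these 6, 3 also passed the unadjusted threshold of the straight line on age: SLC39A14, higher in older animals, and SLC12A5 and SLC43A3, lower in older animals. The age fit called 5 of the 131 carriers (3.82%), against 6.17% of all genes, 1 with a rising level (2.79% of all genes) and 4 with a falling one (3.38% of all genes), and 0 passed adjustment over all genes (lowest adjusted p = 0.661 among carriers, with 0% of all genes passing). The other 2 were SLC25A22, a mitochondrial glutamate carrier, with a slope of -0.14 ± 0.05 log2 units per year (adjusted p = 0.708 by limma), and SLC1A2, the glutamate carrier GLT-1, with -0.12 ± 0.05 (adjusted p = 0.768 by limma). The count was 10 without the 3 AM array, 10 without 7 AM, 8 without 3 PM, 8 without 7 PM and 12 without 11 PM. No share of all genes stands beside these counts, so the rise is not shown to be particular to carriers.

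**Figure D2:**
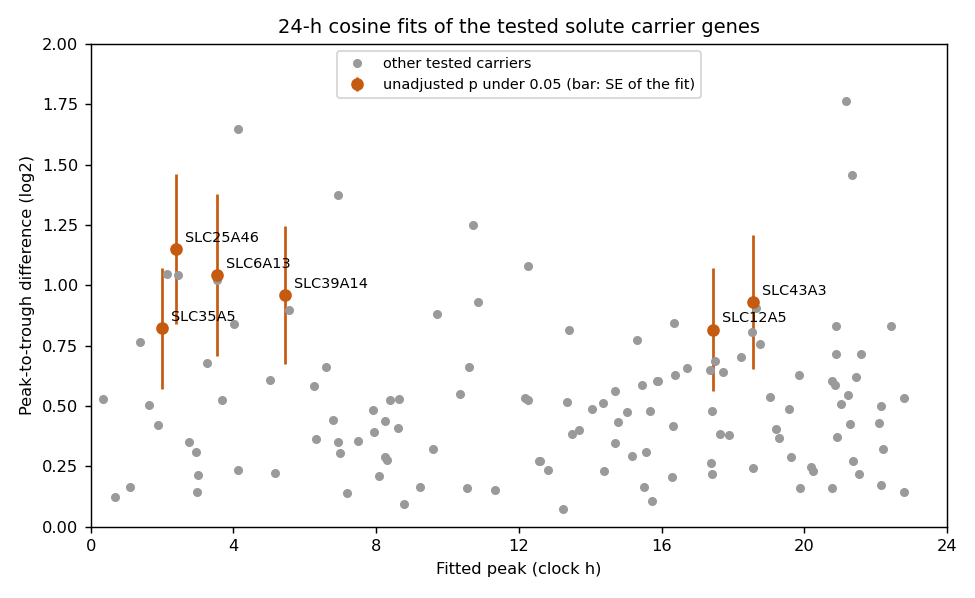
Fitted peak-to-trough difference (log2) against the fitted peak in clock hours for the 131 tested carriers, with the 6 past the unadjusted threshold in orange and bars for the standard error of the fit. Several grey points lie higher than the orange ones, among them SLC26A2 at 1.76 and SLC6A6 at 1.65, whose arrays scatter widely around the curve.

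Between the arrays of 7 AM, 11 AM and 3 PM and those of 7 PM, 11 PM and 3 AM, 60 of 131 carriers were higher by day by any amount (45.8%), against 49.1% of all genes. One carrier passed an unadjusted p of 0.05 as higher by day (1, or 0.763%, against 2.95% of all genes) and 4 as lower by day (3.05%, against 2.44%). After adjustment over all genes 0 passed by limma, as did 0% of all genes; the lowest adjusted p of a carrier was 0.828. Of the 5 carriers called at the unadjusted threshold 0 passed when no filter on level was used, and 0 when the day was taken as 11 AM to 7 PM. All 3 day arrays lay above all 3 night arrays for 4 carriers (3.05%, against 5.61% of all genes) and below them for 6 (4.58%, against 5.26%). An exact test of 3 arrays against 3 cannot go below 0.1.

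The gene higher by day was SLC35G2, a membrane protein of the nucleotide sugar carrier superfamily. Its intensities were 867 at 7 AM, 749 at 11 AM and 841 at 3 PM by day, and 769 at 7 PM, 360 at 11 PM and 490 at 3 AM by night. The 7 PM array lay among the day values, so the groups overlapped. By day it was 1.59-fold higher (log2 0.67 ± 0.28, adjusted p = 0.872 by limma), and it passed without 7 PM and not without any other single array. The count of carriers higher by day was 0 without 3 AM, 3 without 3 PM and 2 without 7 PM or 11 PM. The daytime counts with 1 array left out, in either direction, are given without the share of all genes called.

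Among the 4 lower by day, SLC46A3, a lysosomal membrane carrier, had 1001 at 7 AM, 1284 at 11 AM and 1224 at 3 PM, against 1883 at 7 PM, 1849 at 11 PM and 1361 at 3 AM. The groups did not overlap (log2 -0.53 ± 0.21, adjusted p = 0.834 by limma). SLC27A2, which activates and takes up very long chain fatty acids, had 342, 308 and 419 at the same day hours, against 570, 434 and 513. These groups did not overlap either (log2 -0.51 ± 0.21, adjusted p = 0.864 by limma). A second probe set of SLC27A2 was likewise lower by day, with 220, 225 and 229 on the day arrays and 406, 303 and 370 on the night arrays. SLC46A3 did not pass without 7 AM, 3 PM, 7 PM or 11 PM, and SLC27A2 not without 3 AM, 7 AM, 11 AM or 7 PM.

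SLC17A4, an organic anion carrier of the sodium-phosphate family, showed the widest gap. It had 50.3 at 7 AM, 201 at 11 AM and 175 at 3 PM, against 272 at 7 PM, 216 at 11 PM and 444 at 3 AM. The 7 AM array was far below the rest and 3 AM far above (log2 -1.28 ± 0.50, adjusted p = 0.828 by limma), and without 7 AM the log2 difference was -0.66. The gene did not pass without 3 AM, without 7 AM or without 7 PM. SLC33A1 brings acetyl-CoA into the endoplasmic reticulum. Its values were 179, 373 and 283 by day and 460, 344 and 462 by night, so the 11 AM array lay above the 11 PM array (log2 -0.65 ± 0.28, adjusted p = 0.894 by limma). It passed without 11 AM or 11 PM and not when any other array was left out. Without the 7 PM array the count lower by day was 2.

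SLC39A8, the zinc and manganese carrier ZIP8, separated day from night without passing (log2 -0.53 ± 0.23, adjusted p = 0.894 by limma), with 312, 377 and 382 by day and 429, 696 and 452 by night. Its second probe set above the level median overlapped, with 192, 180 and 195 by day and 208, 270 and 158 by night. SLC25A40 and SLC25A13, mitochondrial carriers of glutathione and of aspartate and glutamate, also lay lower on every day array than on any night array, at log2 differences of -0.32 ± 0.19 and -0.37 ± 0.23. Above every night array lay SLC25A12, the other aspartate-glutamate carrier (0.43 ± 0.21), SLC45A2 (0.40 ± 0.20), the amino acid carrier SLC7A8 (0.39 ± 0.24) and the betaine and GABA carrier SLC6A12 (0.29 ± 0.21). None of these 6 passed the unadjusted threshold. Both other SLC7A8 probe sets above the level median overlapped between day and night, with log2 differences of 1.03 and -0.05. Chromaffin markers, all of them medullary genes, moved with the same split: 12 of 12 tested of 15 listed were higher by day, and the summed intensity of those on the array ran from 28908 to 44782 by day and from 17965 to 27780 by night. Cortex markers were higher by day in 1 of 10 tested of 14 listed, with sums of 70350 to 75227 by day and 60371 to 94672 by night. Adipocyte markers were higher by day in 0 of 3. The part of these shifts in the carriers' values was not tested.

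**Figure D3:**
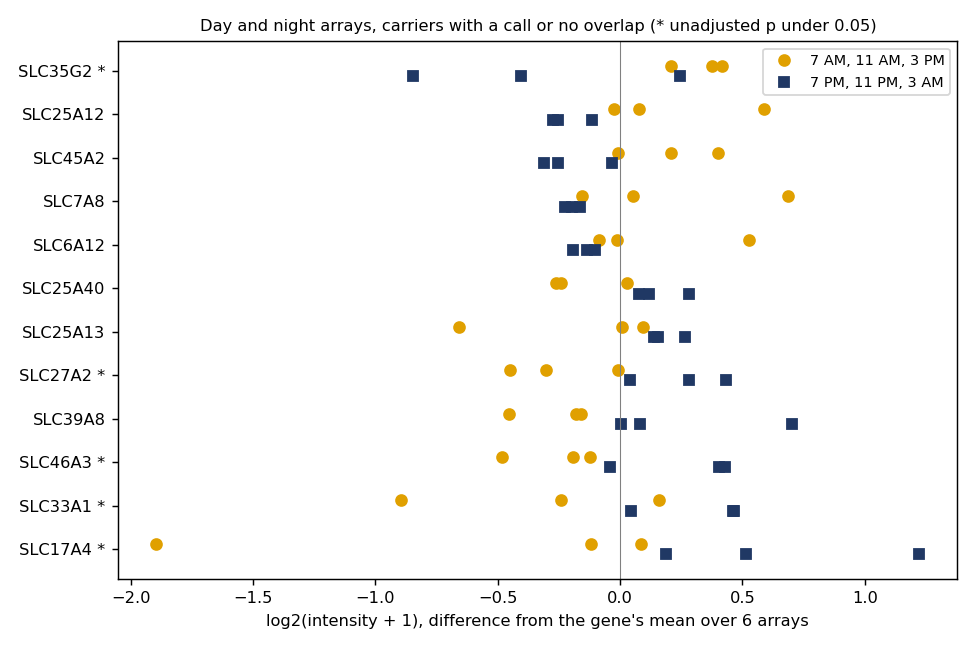
Log2(intensity + 1) as the difference from each gene's own mean over 6 arrays, for the 12 carriers with an unadjusted p under 0.05 (asterisk) or with no overlap, circles for 7 AM, 11 AM and 3 PM and squares for 7 PM, 11 PM and 3 AM. The points of SLC35G2 and SLC33A1 overlap between day and night, and 7 AM of SLC17A4 stands alone on the left.

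Carriers were grouped by family number, under a name for the family that need not hold for each member. No group held more than 1 gene past the cosine rule. Where 49.1% of all genes were higher by day by any amount, this held for 13 of 21 amino acid and peptide carriers, 6 of 19 ion and acid-base carriers, 7 of 19 mitochondrial, 5 of 14 neurotransmitter and osmolyte, 6 of 13 nucleotide sugar, 5 of 12 metal and 7 of 9 sugar and sodium-coupled carriers. In the small groups it held for 4 of 7 organic ion, 3 of 5 nucleoside, 2 of 5 vitamin and 1 of 1 monocarboxylate carriers, 1 of 4 in other families and 0 of 2 genes that are not carriers. Of 33 amino acid and peptide carriers 21 were tested and 1 passed, SLC43A3, placed here by its family although it carries purine bases. SLC3A2, the heavy chain shared by several amino acid exchangers, had 1313 at 3 AM, 1188 at 7 AM, 1108 at 11 AM, 1461 at 3 PM, 1595 at 7 PM and 1703 at 11 PM. It was lowest at 11 AM and highest at 11 PM and did not pass (log2 0.60 ± 0.25, peak at 20.8 h, adjusted p = 0.849 by limma). Its light chain partner SLC7A5 lay below the level median, with values from 24.7 at 3 AM to 136 at 11 PM. SLC38A2, a neutral amino acid carrier induced by amino acid shortage, stayed between 1296 and 2021, SLC7A11, the cystine carrier, between 199 and 285, and SLC1A2 between 216 and 359. A second SLC7A11 probe set above the level median ran wider, from 115 at 3 PM to 398 at 7 PM.

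The 23 neurotransmitter and osmolyte carriers had 14 tested members, of which SLC6A13 passed the cosine rule and SLC17A4 was lower by day. SLC6A2, the noradrenaline transporter that chromaffin cells and sympathetic neurons use for reuptake, lay only just above the level median. Its intensities were 156 at 3 AM, 95.2 at 7 AM, 168 at 11 AM, 258 at 3 PM, 123 at 7 PM and 216 at 11 PM. Day and night values overlapped, with means that differed by log2 -0.00 ± 0.36. Its other 6 probe sets lay below the level median and did not share a course: at 7 AM one had 206 and another 19.4. SLC6A6, the taurine carrier, varied more than any other tested carrier, from 54.4 at 7 PM and 103 at 3 PM to 586 at 11 PM, with 117 at 3 AM, 336 at 7 AM and 171 at 11 AM. Its neighbours in time at 7 PM and 11 PM were the lowest and the highest array, and the cosine explained little of it (R2 0.270, adjusted p = 0.883 by limma). Another SLC6A6 probe set, below the level median, had the same lowest and highest arrays but spanned far less, from 93.6 to 160. SLC6A8, the creatine carrier, had its lowest value at 3 AM (610) and its highest at 11 PM (1395), and SLC17A5, the lysosomal sialic acid carrier, ran from 342 to 563.

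Of 20 sugar and sodium-coupled solute carriers 9 were tested and 0 passed. SLC2A1, the basal glucose transporter GLUT1, had 981 at 3 AM, 1183 at 7 AM, 999 at 11 AM, 1193 at 3 PM, 1169 at 7 PM and 1038 at 11 PM. All 6 values lay within a 1.5-fold range (log2 0.17 ± 0.27, adjusted p = 0.976 by limma). SLC2A3, GLUT3, lay below the level median, with 16.7 to 87.0. Probe sets naming both SLC2A14 and SLC2A3, left out here, read higher, at 193 to 330 and 163 to 370. SLC2A9, a urate carrier, followed the curve more closely, from 433 at 7 AM to 706 at 3 PM (R2 0.926, adjusted p = 0.836 by limma), and the iodide carrier SLC5A5 had 251 at 11 AM and 68.9 at 11 PM (adjusted p = 0.836 by limma).

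Among 28 mitochondrial carriers 19 were tested and SLC25A46 passed. The phosphate carrier SLC25A3 had 7273 at 3 AM, 10170 at 7 AM, 8533 at 11 AM, 6797 at 3 PM, 8722 at 7 PM and 9946 at 11 PM. The ATP/ADP exchanger SLC25A5 was flat from 3 AM to 3 PM, between 4505 and 4609, and stood at 6124 at 7 PM and 6244 at 11 PM. That difference of the last arrays gave no call in the cosine fit (log2 0.51 ± 0.27, adjusted p = 0.868 by limma). The other exchanger tested, SLC25A4, ran from 630 at 3 PM to 1016 at 7 AM. The citrate carrier SLC25A1, whose product feeds lipid synthesis, stayed between 347 and 458, the oxoglutarate carrier SLC25A11 between 841 and 991, and the acylcarnitine carrier SLC25A20 between 819 and 1491. SLC25A24, which exchanges ATP-Mg for phosphate, had 359 at 3 AM and 134 at 7 PM (peak at 3.53 h, log2 1.02 ± 0.35, adjusted p = 0.836 by limma).

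The 40 ion and acid-base carriers had 19 tested members with SLC12A5 past the cosine rule. SLC12A7, the potassium-chloride cotransporter KCC4, had 290 at 3 AM, 243 at 7 AM, 320 at 11 AM, 477 at 3 PM, 401 at 7 PM and 275 at 11 PM. Like SLC12A5 it was highest at 3 PM and 7 PM and lowest at 7 AM, but it did not pass (log2 0.84 ± 0.29, peak at 16.3 h, adjusted p = 0.836 by limma). SLC12A2, the sodium-potassium-chloride cotransporter NKCC1, stayed between 357 and 549. SLC24A3, a potassium-dependent sodium-calcium exchanger, had its highest value at 3 AM (461) and its lowest at 3 PM (220), and its second probe set peaked at 2.09 h, near the 4.01 h of the first.

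SLC26A2, a sulphate carrier, had the largest fitted ratio of the tested carriers, a peak 3.39 times the trough, with no call. Its intensities were 142 at 3 AM, 450 at 7 AM, 170 at 11 AM, 186 at 3 PM, 913 at 7 PM and 696 at 11 PM. The 7 PM and 11 PM arrays stood above the others, the 7 AM array lay between, and the fit was poor (log2 1.76 ± 0.90, R2 0.355, adjusted p = 0.862 by limma). Cortex markers were highest on the same 2 arrays, at 0.37 and 0.34 above their own means on the log2 scale, and their part was not tested. SLC4A2, the chloride-bicarbonate exchanger AE2, swung without order, from 52.1 at 3 PM to 399 at 7 PM (adjusted p = 0.933 by limma).

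In the metal carriers 12 of 19 were tested and SLC39A14 passed. SLC30A1, which exports zinc, had 1358 at 3 AM, 1049 at 7 AM, 1606 at 11 AM, 1095 at 3 PM, 1223 at 7 PM and 1230 at 11 PM, and its fitted difference was small against its error (log2 0.09 ± 0.32). SLC39A6, a zinc importer, stayed between 186 and 295, and the copper importer SLC31A1 lay below the level median, at 29.4 to 103. Of 18 nucleotide sugar and Golgi or endoplasmic reticulum carriers 13 were tested and SLC35A5 passed, with SLC35G2 and SLC33A1 past the day and night threshold in opposite directions.

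Of 6 nucleoside carriers 5 were tested and 0 passed. SLC29A1, the nucleoside carrier ENT1, had 1300 at 3 AM, 1902 at 7 AM, 761 at 11 AM, 899 at 3 PM, 1028 at 7 PM and 1688 at 11 PM. The values at 11 PM, 3 AM and 7 AM were above the other 3 (log2 1.04 ± 0.39, peak at 2.44 h, adjusted p = 0.836 by limma). A second probe set peaked at 4.19 h with a smaller log2 difference, 0.53. SLC28A1, a sodium-coupled nucleoside carrier, was lowest at 7 AM (171) and highest at 3 PM (336).

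Vitamin, choline and heme carriers numbered 10, with 5 tested, 0 past the cosine rule and SLC46A3 lower by day. SLC23A2, which brings ascorbate into cells, a vitamin the adrenal stores in quantity, had 361 at 3 AM, 500 at 7 AM, 502 at 11 AM, 297 at 3 PM, 402 at 7 PM and 447 at 11 PM (adjusted p = 0.937 by limma). Its other 2 probe sets above the level median differed from each other: one had its highest value at 7 AM (625) and the other at 7 PM (626). No course over the day can be given for SLC23A2 from these. The heme carrier SLC48A1 ran from 420 at 11 AM to 661 at 11 PM (peak at 21.2 h, adjusted p = 0.858 by limma), and its other 2 probe sets, both below the median, were also highest at 11 PM and peaked at 20.1 h and 22.1 h.

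**Figure D4:**
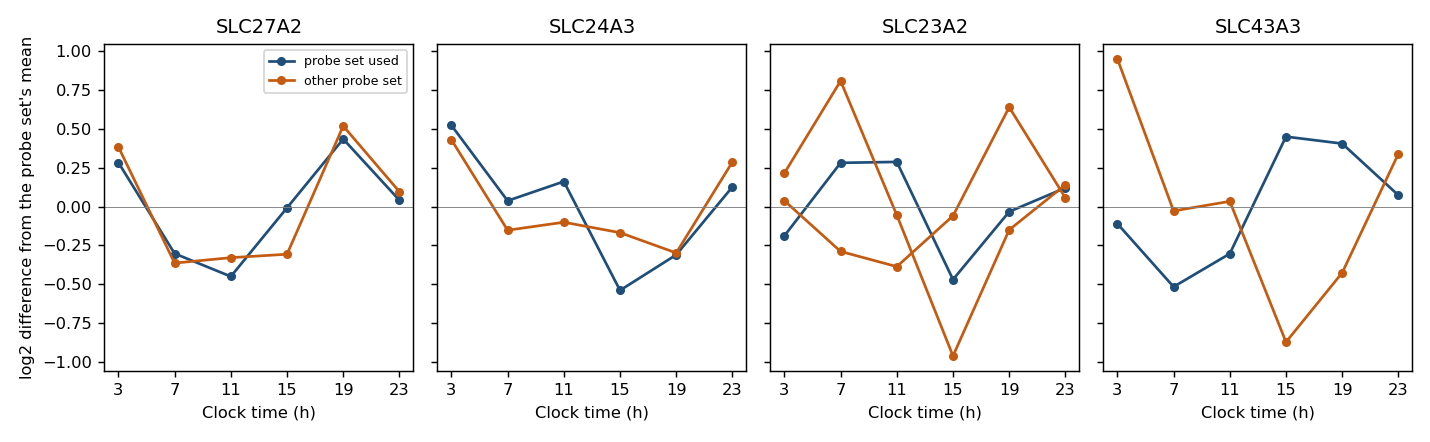
Log2 difference from each probe set's own mean against clock time in hours for every single-gene probe set above the level median of 4 carriers, blue for the one used. The lines of SLC27A2 and SLC24A3 run together, while those of SLC23A2 and SLC43A3 part.

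Organic ion, bile acid and lipid carriers had 7 of 18 tested, with 0 past the cosine rule and SLC27A2 lower by day. SLC22A7, an organic anion carrier, stayed between 136 and 233. In the monocarboxylate and thyroid hormone family 1 of 5 was tested, SLC16A5, with 116 to 216. Families outside these groups had 4 of 9 tested and 0 passing; among them SLC66A1, a lysosomal exporter of cationic amino acids, ran from 205 to 468, and SLC67A1 from 249 to 574. Both urea carriers lay below the level median.

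Across the tested carriers the 7 AM array was low and the 3 PM array high more often than over all genes. The lowest of the 6 values was at 7 AM for 38 of 131 carriers (29.0%, against 21.6% of all genes), and the highest was at 3 PM for 38 (29.0%, against 19.4%). These arrays also had the lowest and the highest median intensity, 154 and 173.1, over all probe sets. With each array centred on its median, 25.2% of carriers were lowest at 7 AM, against 15.5% of all genes, and 20.6% were highest at 3 PM, against 12.4%. Centring moved the median probe set by 0.08 at 7 AM and -0.09 at 3 PM on the log2 scale. Under a stricter filter on level, which kept 47 of the carriers, 7 AM was lowest for 12 (25.5%, against 18.1% of all genes). It was highest for 12 as well (25.5%, against 21.3%), so in that set 7 AM was low no more often than high. The 3 PM array was also highest for 12 of them (25.5%), a larger share than over all genes. The difference between carriers and other genes was not tested, since genes on 1 array are not independent.

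**Figure D5:**
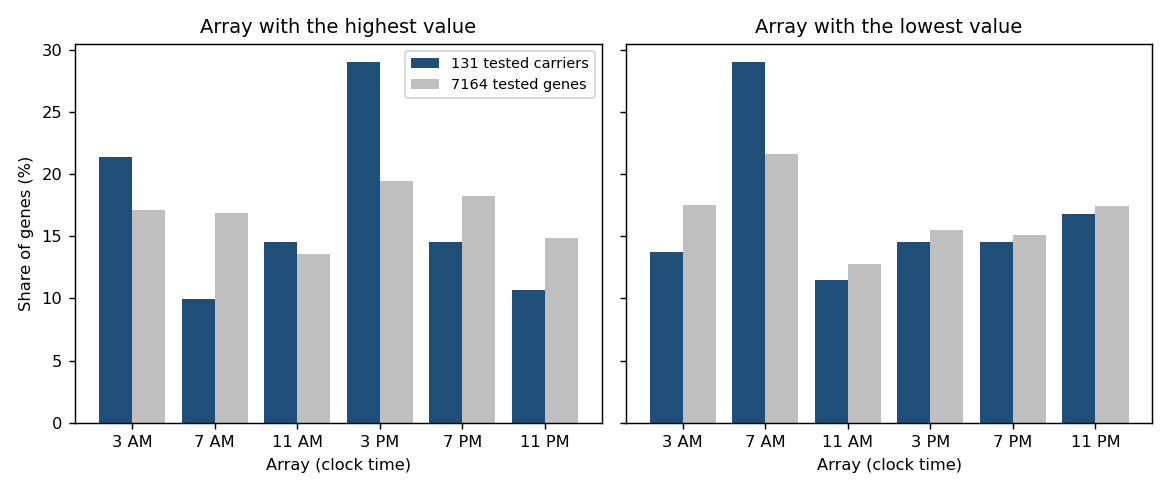
Share of genes, in percent, whose highest (left) or lowest (right) of 6 values fell on each array, for the 131 tested carriers in blue and all 7164 tested genes in grey. Carriers were most often highest at 3 PM (29.0%) and most often lowest at 7 AM (29.0%).

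Over the 6 arrays 41 of 131 carriers (31.3%) spanned more than a 2-fold range, against 27.6% of all genes, and 9 (6.87%) spanned more than 4-fold, against 3.10%. These 9 were SLC6A6, SLC17A4, SLC4A2, SLC26A2, SLC35H1, SLC10A1, SLC13A3, SLC25A14 and SLC39A4, singled out after their values were seen. Their extreme arrays differed: SLC10A1, a bile acid carrier, SLC13A3, a dicarboxylate carrier, SLC39A4, a zinc importer, and SLC6A6 were lowest at 7 PM, SLC35H1 at 11 PM, and SLC26A2 and SLC25A14 at 3 AM. None passed the cosine rule. A stricter filter on level kept 47 of the 131 carriers and 3804 of the 7164 genes, so the 2 sets differ in level. The part of level in the wider ranges was not tested. Where a tested carrier had a second probe set above the level median, 22 of 31 such probe sets, from 22 genes, had a fitted peak within 6 h of the first, a window that takes in 12 of the 24 hours. The sign of the day and night difference was shared by 18 of the 31.

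Genes that work with the carriers, or carry solutes under other names, came from lists by function, against a background of 5.56% of all genes past the cosine rule. Of 11 genes of the sodium pump, whose gradient drives many carriers, 5 were tested; the subunit gene ATP1B2 passed the cosine rule (peak 2.30 times the trough at 22.5 h, adjusted p = 0.836 by limma) and was lower by day (log2 -0.85 ± 0.27). Its values were 166 at 7 AM, 175 at 11 AM and 126 at 3 PM, against 308 at 7 PM, 360 at 11 PM and 195 at 3 AM. Of 11 chaperones and adaptors 9 were tested and 0 passed the cosine rule. The kinase gene SGK1, a regulator of ion carriers, was higher by day at the unadjusted threshold (log2 0.63 ± 0.27). Its 3 AM value (1113.5) lay above its 7 AM value (1081), so the groups overlapped. That threshold called 2.95% of all genes higher by day and 2.44% lower, and 0% passed adjustment. Of 25 ABC carriers 14 were tested and 2 passed, ABCB1 (1.97 times at 4.95 h) and ABCB4 (2.25 times at 5.70 h). Each had an adjusted p = 0.836 by limma. Both genes also passed the unadjusted threshold of the straight line on age, so clock time and age are not told apart for them. Among 9 SLCO organic anion carriers 2 were tested and 0 passed. Of 7 mitochondrial carriers under other names 6 were tested and 0 passed the cosine rule, with UCP2, an uncoupling protein family member, lower by day (-0.77 ± 0.31). It had 646 at 7 AM, 1164 at 11 AM and 975 at 3 PM, against 1097 at 7 PM, 2161 at 11 PM and 1548 at 3 AM, so the 11 AM array lay above the 7 PM array. In the same list the uncoupling protein gene UCP1, a gene of brown adipocytes, had 1463 at 3 AM and 124 at 7 AM, with 420, 509, 402 and 587 on the 11 AM, 3 PM, 7 PM and 11 PM arrays; the adipocyte markers were also highest at 3 AM and were low at 7 AM, but were lowest at 3 PM.

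The 105 genes below the level median had means from 1.86 to 7.30 on the log2 scale. SLC6A3 and SLC67A1-AS lay just outside it at 7.29 and 7.30, and SLC12A3 and SLC6A2 just inside at 7.32 and 7.34. Below it among amino acid and peptide carriers were SLC15A3, SLC1A1, SLC1A5, SLC1A6, SLC36A1, SLC38A1, SLC38A12, SLC38A4, SLC38A6, SLC3A1, SLC7A2 and SLC7A5. Among ion and acid-base carriers they were SLC12A1, SLC12A8, SLC13A1, SLC13A2, SLC20A1, SLC24A1, SLC26A1, SLC26A3, SLC26A4, SLC34A1, SLC34A2, SLC4A1, SLC4A10, SLC4A3, SLC4A7, SLC4A8, SLC8A1, SLC8A2, SLC8B1, SLC9A3 and SLC9A5. The mitochondrial carriers below were SLC25A10, SLC25A15, SLC25A17, SLC25A21, SLC25A23, SLC25A30, SLC25A31, SLC25A42 and SLC25A44, and the sugar and sodium-coupled solute carriers SLC2A10, SLC2A11, SLC2A2, SLC2A3, SLC2A4, SLC2A6, SLC2A8, SLC50A1, SLC5A12, SLC5A4 and SLC5A7. Neurotransmitter and osmolyte carriers below were SLC17A2, SLC17A6, SLC6A11, SLC6A14, SLC6A15, SLC6A20, SLC6A3, SLC6A5 and SLC6A7. Metal carriers below were SLC30A10, SLC30A3, SLC30A4, SLC30A6, SLC31A1, SLC39A2 and SLC39A9, and organic ion, bile acid and lipid carriers SLC10A2, SLC10A3, SLC22A11, SLC22A13, SLC22A2, SLC22A6, SLC22A8, SLC27A3, SLC27A5, SLC27A6 and SLC47A1. The rest were SLC16A10, SLC16A4, SLC16A7, SLC16A8, SLC35A3, SLC35D2, SLC35E3, SLC35F5, SLC37A1, SLC19A1, SLC19A2, SLC19A3, SLC44A1, SLC44A4, SLC29A2, SLC14A1, SLC14A2, SLC18A3, SLC66A2, SLC67A2, SLC68A1 and SLC75A1, with SLC19A4P, SLC26A10P and SLC67A1-AS, which are not carriers.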

How the data were processed

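The authors deposited 1 linear intensity for each probe set of an array; the array type comes from the labels' protocols. The 2% trimmed mean lay between 325.04 and 325.09 on all 6 arrays, so the values had been scaled; neither software nor summary method was named in the sources used here. Intensities were converted to log2(value + 1). Probe sets naming 1 gene in the platform annotation were used, and genes at or above the median level of log2 7.30 were tested (7164 of 11963).

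All fits used limma 3.58.1 in R 4.3.3 over all 7164 genes with Benjamini-Hochberg adjustment: a 24-h cosine (moderated F test, 3 residual degrees of freedom), the 3 day arrays against the 3 night arrays, and a straight line on age. Standard errors use limma's moderated variance, which draws each gene's own scatter around the fit toward a value estimated over all genes. In the cosine fit that shared part had 4.60 degrees of freedom, against 3 from the gene's own arrays. They are therefore not the spread of the animals for that gene alone. With 1 animal for each clock time, the number of arrays limits the precision. The cosine, daytime and age fits were tested on simulated data. In the cosine fit a simulated peak 2 times the trough passed adjustment in 2.99% of changed genes, and 4 times in 41.8%. Without adjustment the shares were 68.7% and 95.5%. The absence of carriers past adjustment therefore says little about courses of these sizes. Alternatives were other filters, pseudocounts, scalings, probe sets and variance models, age as a covariate, another split of the day and each array left out.

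The members and lists were chosen with earlier results of these data known. Named carriers are the 12 with the smallest cosine p, up to 4 in each direction of the daytime contrast with the smallest p among those differing at least 1.5-fold, the 2 with the smallest cosine p in each role group, and the 27 measured of 34 hand-picked carriers; other genes were picked with their values in view. A further 11 probe sets naming a carrier beside other genes were left out.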

Additional observations from a re-analysis of the deposited data

How the results depend on the processing

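The 6 carriers past the cosine rule became 14 with no filter on level, of which 13 lay below the level median, and 10 under quantile normalization, where all 6 were shared; leaving out 1 array gave 3 to 12. Carriers past adjustment of the cosine fit over all genes numbered 0 under every alternative run, single arrays left out included. Carriers higher by day numbered 6 with no filter, 0 with the ordinary test and 5 with the day taken as 11 AM to 7 PM, and 0 to 3 without single arrays, against 1. The 4 lower by day ran from 2 to 5 without single arrays. Of the 5 carriers called in either direction 0 were called with no filter (9 called), 0 with the later day (10 called) and 2 with the ordinary test (3 called), and of the 6 of the cosine rule 1 with no filter and 3 with the ordinary test. The 5 of the age fit became 16 with no filter, 3 with the probe set of largest spread (90 carriers tested) and 8 with the ordinary test, and 4 to 12 without single arrays. With age as a covariate 8 carriers passed the cosine rule, 0 of them among the 6. Peaks turned for SLC43A3 with the probe set of largest spread (log2 1.45) and for SLC39A14 with age as a covariate (0.55), and the day difference turned for SLC17A4 (0.32) and SLC33A1 (0.25) with the later split of the day. Over the named carriers the cosine fit kept its side of the unadjusted threshold in 577 cases, lost it in 43 and gained it in 36, which counts genes past it in neither fit; the day and night contrast kept it in 61 cases, lost it in 19, gained it in 2 and turned in 2. The counts of carriers called under each setting stand without the share of all genes called there, so they do not show a change particular to carriers. Apart from the numbers of genes and arrays used, the cause was not tested. No paired analysis was possible because every array is a different animal at a different hour. The table holds no background or detection values.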
